A study of Mus musculus with 18 samples.

Results

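Colon RNA was examined for 9 genes that carry bone morphogenetic protein (BMP), TGF-beta and R-spondin signals around the intestinal crypt. They are the BMP ligands *Bmp2*, *Bmp4* and *Bmp7*, the secreted BMP antagonist *Grem1*, the activin subunit gene *Inhba*, the TGF-beta ligand *Tgfb1*, the TGF-beta target *Tgfbi*, the BMP target *Id1* and the R-spondin *Rspo3*. The genes were picked by symbol for these roles and make up 9 of the 47729 genes counted. Of the 9, 8 had enough counts to be tested and *Inhba* did not.

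BMP, TGF-beta and activin ligands are secreted dimers that bind receptor serine/threonine kinases, which phosphorylate SMAD proteins that then enter the nucleus and regulate target genes. In the colon, BMP activity is high toward the crypt mouth, where cells differentiate, and is held low at the crypt base by antagonists from fibroblasts and smooth muscle. R-spondins from crypt base stroma bind LGR receptors and raise Wnt signaling in stem cells, and TGF-beta is known for restraining epithelial growth and for activating fibroblasts.

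The data were gene counts from colon RNA of 9 mice in 3 groups of equal size. Mice 1 to 3, called naive WT, had the WT genotype and the treatment label of a control. WT CAC mice (mice 4 to 6) were WT mice with colitis-associated cancer (CAC), induced by azoxymethane (AOM), a carcinogen, and dextran sulfate sodium (DSS), which injures the colon lining. *Cldn2*TG CAC mice (mice 7 to 9) carried the Claudin-2TG genotype and had the same AOM and DSS treatment. A single AOM dose of 10 mg/kg was followed by 2.5% DSS, given in 3 cycles. The protocol text lists this treatment under the control mice as well, so naive WT was taken from the treatment label. All lines were on a C57BL/6 background, and ages were not given in the sources used here. The transgene places *Cldn2*, a claudin of tight junctions that passes cations and water, under the villin promoter, which is active in intestinal epithelium and not in the stroma where several of these signals are made. No untreated transgenic mice were analysed here, so genotype and treatment cannot be told apart where *Cldn2*TG CAC is set against naive WT.

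Each library was read in 2 lanes, which differed by little more than counting noise (chi-square per degree of freedom 0.995 to 1.06, where mice of the same group differed by 16.8 to 66.3) and were added up. Counts on genes came to 14142711 in the mouse with the fewest and 22262546 in the mouse with the most. Mitochondrial genes held 3.114%, 3.498% and 2.86% of them in naive WT mice 1 to 3. The share was 4.691%, 3.537% and 4.489% in WT CAC mice 4 to 6 and 5.043%, 4.575% and 5.758% in *Cldn2*TG CAC mice 7 to 9. Every treated mouse was thus above every naive WT mouse, and the part of this in the differences between groups was not tested. Levels are CPM, the counts of a gene relative to library size, scaled to a common library size by the trimmed mean of M-values (TMM). A count of 0 allows up to 3 counts, or 0.13 to 0.222 CPM here, and this limit covers counting error only. *Cldn2* (ENSMUSG00000047230) itself was at 191, 259 and 245 CPM in naive WT mice 1 to 3, at 119, 137 and 132 CPM in WT CAC mice 4 to 6 and at 208, 218 and 251 CPM in *Cldn2*TG CAC mice 7 to 9. All 3 transgenic mice lay above all 3 WT CAC mice, and they overlapped with the naive WT group. *Xist*, the RNA of the inactive X chromosome, was at 214 CPM in mouse 1, which had no more than 0.199 CPM of any of 4 Y chromosome genes. In the other 8 mice *Xist* did not exceed 0.203 CPM and each Y gene reached 20.2 CPM or more, so that sex differed within the naive WT group.

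To compare levels between genes, CPM were divided by exon length in kilobases (CPM per kb). On this scale *Id1* was the highest of the 9 genes in every group, at 363 ± 47.3 CPM per kb (SD, n = 3) in naive WT, 352 ± 61.2 in WT CAC and 522 ± 138 in *Cldn2*TG CAC mice. *Bmp2* was next with 41.0 ± 10.1, 20 ± 3.61 and 36.9 ± 1.45 CPM per kb, and *Tgfbi* came after it with 8.76 ± 2.33, 16.5 ± 5.99 and 4.27 ± 1.87 CPM per kb. In WT CAC mice *Bmp2* and *Tgfbi* overlapped on this scale. In naive WT mice the order went on with *Grem1* (4.0 CPM per kb), *Tgfb1* (2.21), *Bmp4* (1.66), *Rspo3* (0.667), *Bmp7* (0.499) and *Inhba* (0.0408), and of these neighbors only *Grem1* and *Tgfb1* overlapped between mice. In WT CAC mice *Bmp4* (3.68), *Bmp7* (3.62), *Grem1* (3.39) and *Tgfb1* (3.25) could not be ordered, since each overlapped with the next, while *Rspo3* (0.785) overlapped with *Bmp7* and lay below the others, and *Inhba* (0.22) was the lowest. In *Cldn2*TG CAC mice *Tgfb1* (1.96) lay above *Grem1* (1.25), which was followed with overlap by *Bmp4* (0.91), *Rspo3* (0.389) and *Bmp7* (0.319), and *Inhba* (0.0326) was the lowest.

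The comparison of WT CAC with naive WT colon asked how these signals differ after AOM and DSS treatment. *Bmp4* and *Bmp7* were higher and *Bmp2* was lower in WT CAC mice, and the other 5 genes tested did not pass. A gene was called at an adjusted p under 0.05 from edgeR's two-sided quasi-likelihood test with Benjamini-Hochberg adjustment over 15437 genes, of which 8.04% were called higher and 6.92% lower. In 4 of the 8 genes tested the mice of the groups did not overlap, against 38.0% of all genes tested. The median log2 fold change of the 8 was 0.42, against 0.02 over all genes tested. With DESeq2 in place of edgeR 5 of the 9 were called, and the number was 0 without naive WT mouse 1 or without naive WT mouse 2, 1 without naive WT mouse 3, WT CAC mouse 5 or WT CAC mouse 6, and 5 without WT CAC mouse 4. Among all genes 2310 were called, and 3250 with DESeq2. That number was 631, 135 and 404 without naive WT mouse 1, 2 and 3, and 4080, 1245 and 1062 without WT CAC mouse 4, 5 and 6.

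Setting *Cldn2*TG CAC beside WT CAC colon asked what goes with the transgene under the same treatment. Here 6 of the 8 genes tested were called. *Bmp4*, *Bmp7*, *Grem1*, *Tgfb1* and *Tgfbi* were lower in *Cldn2*TG CAC mice, *Bmp2* was higher, and *Id1* and *Rspo3* did not pass. Of the 14888 genes tested, 2.19% were called higher and 7.35% lower. The groups did not overlap in 8 of the 8 members tested, against 28.5% of all genes tested, and the median log2 fold change of the 8 was -1.25, against 0.01 over all genes. The number called fell to 2 without WT CAC mouse 5 or 6, to 3 without *Cldn2*TG CAC mouse 7 and to 0 without *Cldn2*TG CAC mouse 8 or 9, and it was 4 with no filter on low counts. The number called among all genes fell as well, from 1421 to 555 and 805 without WT CAC mouse 5 and 6. It was 460, 58 and 108 without *Cldn2*TG CAC mouse 7, 8 and 9, and 1710 with no filter.

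*Cldn2*TG CAC mice were also compared with naive WT mice, to place their levels beside those of untreated colon. Only *Grem1* was called among the 8 members tested, and it was lower. Of 15013 genes tested, 3.92% were called higher and 6.07% lower. The groups did not overlap in 3 of the 8 (*Bmp4*, *Grem1* and *Rspo3*, all lower), against 31.2% of all genes tested, and the median log2 fold change was -0.71 for the 8 and 0.00 for all genes. DESeq2 called 3 of the 9, and a fit with no filter on low counts called 4. Among all genes these fits called 1772 and 2567, against 1501 in the main fit. The 3 comparisons share groups of mice with each other, so their values are given side by side and are not independent of one another.

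**Figure D1:**
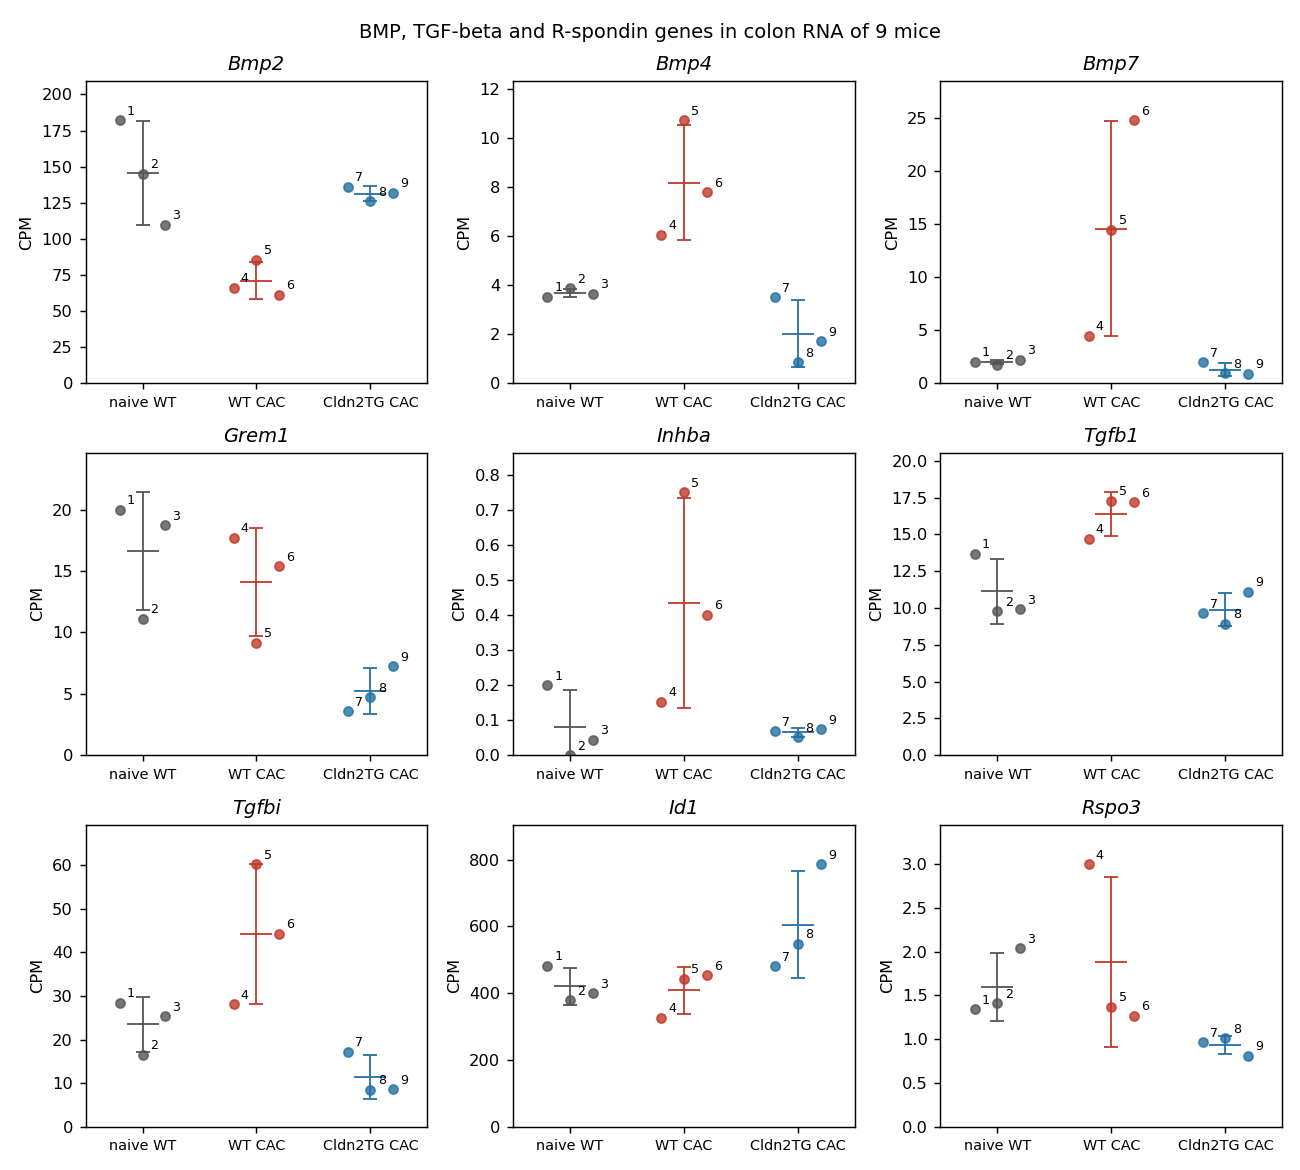
Level of each of the 9 genes (CPM, linear axis from 0) in the mice of the 3 groups, with 1 point per mouse labeled by its number and the mean ± SD of 3 mice. *Bmp7* lies between 4.47 and 24.8 CPM in WT CAC mice and at 2.21 CPM or less in the other 6 mice, and *Grem1* is at 7.24 CPM or less in *Cldn2*TG CAC mice and at 9.15 CPM or more in the others.

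**Figure D2:**
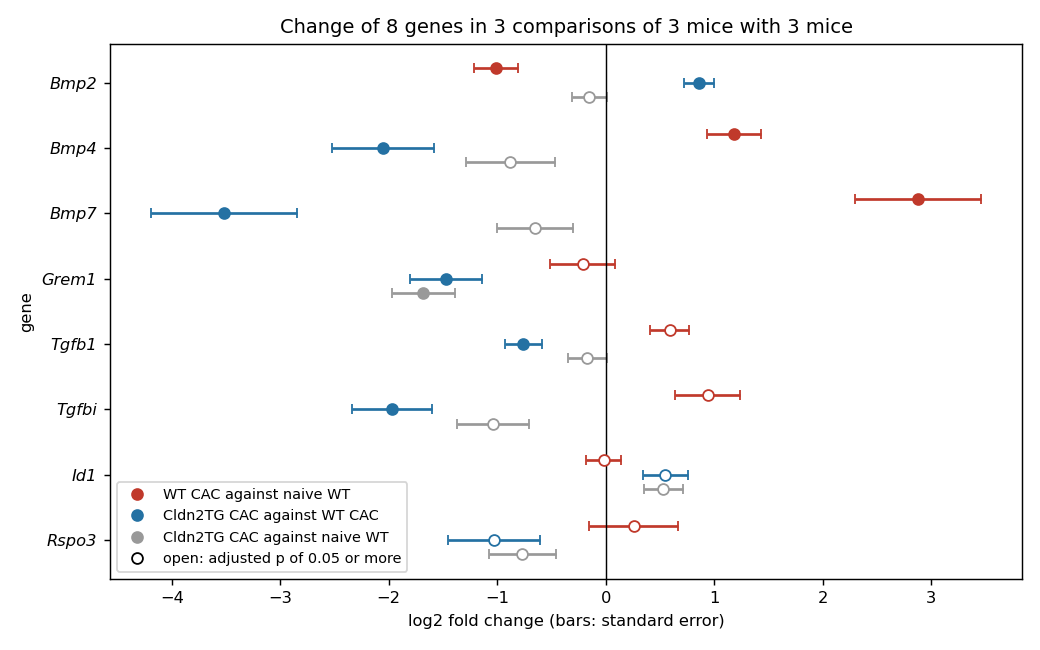
Log2 fold change of the 8 genes tested in each comparison of 3 mice with 3 mice, with bars for the standard error and filled points for an adjusted p under 0.05. *Bmp2* lies at -1.01 and 0.86 and *Bmp7* at 2.88 and -3.52 in WT CAC against naive WT and in *Cldn2*TG CAC against WT CAC.

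*Bmp2* (ENSMUSG00000027358, chr2:133552159-133562885, plus strand), a BMP ligand that differentiated epithelial cells near the crypt mouth make, was at 182, 145 and 109.9 CPM in naive WT mice 1 to 3. WT CAC mice 4 to 6 had 66.1, 85.6 and 61.4 CPM, and *Cldn2*TG CAC mice 7 to 9 had 136, 126 and 132 CPM. The 3 WT CAC mice were the lowest of the 9, and the transgenic mice lay within the range of naive WT mice. *Bmp2* was 2.02-fold lower in WT CAC than in naive WT mice (log2 fold change -1.01, standard error (SE) 0.2, adjusted p = 0.0208, edgeR). The call was lost without naive WT mouse 1 (0.0614), naive WT mouse 2 (0.0786) or WT CAC mouse 6 (0.0602), within a range of adjusted p of 9.09e-05 to 0.0786 over all alternatives. Among *Cldn2*TG CAC mice *Bmp2* was 1.82-fold higher than in WT CAC mice (log2 fold change 0.86, SE 0.14, adjusted p = 0.0118, edgeR). This call was lost without *Cldn2*TG CAC mouse 8 (0.0603) or 9 (0.0653), with adjusted p from 1.72e-05 to 0.0653 over the alternatives. Against naive WT mice the log2 fold change was -0.15 (SE 0.16, adjusted p = 0.614, edgeR), and it was 0.05 without naive WT mouse 1.

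*Bmp4* (ENSMUSG00000021835, chr14:46383520-46390669, minus strand), a BMP ligand made mainly by mesenchymal cells under the epithelium, was at 3.53, 3.87 and 3.65 CPM in naive WT mice 1 to 3. It was at 6.04, 10.7 and 7.77 CPM in WT CAC mice 4 to 6 and at 3.51, 0.861 and 1.7 CPM in *Cldn2*TG CAC mice 7 to 9. All 3 groups were apart from each other, although *Cldn2*TG CAC mouse 7 lay just below the lowest naive WT mouse. *Bmp4* was 2.26-fold higher in WT CAC than in naive WT mice (log2 fold change 1.18, SE 0.25, adjusted p = 0.0243, edgeR). It was not called in a fit of all 9 mice (0.0589) or without naive WT mouse 1 (0.0795), 2 (0.0877) or 3 (0.0873) or WT CAC mouse 5 (0.0589) or 6 (0.0519), with adjusted p from 0.000804 to 0.0877 over the alternatives. It was 4.15-fold lower in *Cldn2*TG CAC than in WT CAC mice (log2 fold change -2.05, SE 0.47, adjusted p = 0.0322, edgeR). The call was lost without WT CAC mouse 5 (0.104) or 6 (0.0744) or *Cldn2*TG CAC mouse 8 (0.0927) or 9 (0.141), with adjusted p from 0.000217 to 0.141 and log2 fold changes from -2.71 to -1.65 over the alternatives. Against naive WT the log2 fold change was -0.88 (SE 0.41, adjusted p = 0.211, edgeR), and *Bmp4* was called without *Cldn2*TG CAC mouse 7 (-1.56, adjusted p = 0.0233) and with no filter on low counts (0.0332), over a range of adjusted p of 0.0233 to 0.434. The genes *Gm15217* and *Gm15222* overlap *Bmp4* on the other strand and had 6 and 4 counts in all mice together, against 801 of *Bmp4*.

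*Bmp7* (ENSMUSG00000008999, chr2:172868012-172940321, minus strand), a BMP ligand known from kidney and bone development, was at 2.04, 1.76 and 2.21 CPM in naive WT mice 1 to 3. WT CAC mice 4 to 6 had 4.47, 14.5 and 24.8 CPM, and *Cldn2*TG CAC mice 7 to 9 had 2.0, 0.963 and 0.886 CPM. The WT CAC mice were the 3 highest and also spread the most, with mouse 4 nearest to the other groups, and the transgenic mice overlapped with naive WT mice. It was 7.35-fold higher in WT CAC than in naive WT mice (log2 fold change 2.88, SE 0.58, adjusted p = 0.023, edgeR). That call was lost with no filter on low counts (0.0649) and without naive WT mouse 1 (0.0806), 2 (0.0985) or 3 (0.08) or WT CAC mouse 5 (0.051), with adjusted p from 2.08e-07 to 0.0985 and log2 fold changes from 2.26 to 3.31 over the alternatives. *Cldn2*TG CAC mice had 11.5-fold less *Bmp7* than WT CAC mice (log2 fold change -3.52, SE 0.67, adjusted p = 0.0215, edgeR). It was lost with no filter (0.0943) and without WT CAC mouse 5 (0.0605) or *Cldn2*TG CAC mouse 7 (0.0621), 8 (0.108) or 9 (0.102), with adjusted p from 4.32e-09 to 0.108 and log2 fold changes from -3.97 to -2.88. Between *Cldn2*TG CAC and naive WT mice the log2 fold change was -0.65 (SE 0.35, adjusted p = 0.266, edgeR).

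Added up per length, the 3 BMP ligands were at 53.2, 43.1 and 33.1 CPM per kb in naive WT mice 1 to 3, at 22.4, 32.5 and 26.9 CPM per kb in WT CAC mice 4 to 6 and at 40.4, 36.0 and 38.1 CPM per kb in *Cldn2*TG CAC mice 7 to 9. *Bmp2* made up 93.4% to 96.1% of that sum in naive WT mice and 94.9% to 98.3% in *Cldn2*TG CAC mice. Its share was 82.9%, 74.1% and 64.1% in WT CAC mice 4 to 6, below all 6 other mice. *Bmp4* made up 12.1%, 14.9% and 13.0% of the sum in these mice, and *Bmp7* 4.96%, 11.1% and 22.9%. The makeup of the ligand RNA thus varied more among WT CAC mice than in either other group. The sums describe RNA and not the active protein dimers.

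*Grem1* (ENSMUSG00000074934, chr2:113746164-113758646, minus strand) encodes Gremlin 1, which binds BMP2, BMP4 and BMP7 and is made by stromal cells near the crypt base. It was at 20, 11.1 and 18.7 CPM in naive WT mice 1 to 3 and at 17.7, 9.15 and 15.4 CPM in WT CAC mice 4 to 6. *Cldn2*TG CAC mice 7 to 9 had 3.58, 4.71 and 7.24 CPM. These 3 mice were lower than the other 6, which overlapped across both WT groups. *Grem1* was 2.77-fold lower in *Cldn2*TG CAC than in WT CAC mice (log2 fold change -1.47, SE 0.33, adjusted p = 0.0286, edgeR). The call was lost without WT CAC mouse 6 (0.0778) or *Cldn2*TG CAC mouse 7 (0.108), 8 (0.126) or 9 (0.0632), with adjusted p from 0.00035 to 0.126 over the alternatives. Against naive WT mice it was 3.21-fold lower (log2 fold change -1.68, SE 0.29, adjusted p = 0.0105, edgeR), a call that was lost only without *Cldn2*TG CAC mouse 8 (0.0514), with adjusted p from 3.21e-16 to 0.0514. In WT CAC against naive WT the log2 fold change was -0.21 (SE 0.3, adjusted p = 0.665, edgeR), and 0.03 without WT CAC mouse 5. *Grem1* was the only member called lower in transgenic mice against each WT group, and *Bmp4* and *Rspo3* were likewise at their lowest in the 3 transgenic mice.

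*Tgfb1* (ENSMUSG00000002603, chr7:25687002-25705077, plus strand), the TGF-beta ligand of many immune and stromal cells, was at 13.7, 9.79 and 9.9 CPM in naive WT mice 1 to 3. It was at 14.7, 17.3 and 17.2 CPM in WT CAC mice 4 to 6 and at 9.64, 8.92 and 11.1 CPM in *Cldn2*TG CAC mice 7 to 9. The WT CAC mice were the 3 highest, by a small margin over naive WT mouse 1, and the other 6 mice overlapped. *Tgfb1* was 1.69-fold lower in *Cldn2*TG CAC than in WT CAC mice (log2 fold change -0.76, SE 0.17, adjusted p = 0.0273, edgeR). It was not called with lane 2 alone (0.0565) or without WT CAC mouse 5 (0.0877) or 6 (0.0778) or *Cldn2*TG CAC mouse 7 (0.0985), 8 (0.125) or 9 (0.0749), with adjusted p from 0.00432 to 0.125 over the alternatives. In WT CAC against naive WT the log2 fold change was 0.59 (SE 0.18, adjusted p = 0.0635, edgeR), and the gene passed with DESeq2 (0.0384), with all 9 mice in the fit (0.0372) and without WT CAC mouse 4 (0.0399), over a range of 0.0372 to 0.204. Against naive WT, *Cldn2*TG CAC mice had a log2 fold change of -0.17 (SE 0.18, adjusted p = 0.598, edgeR), and of 0.02 without naive WT mouse 1.

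*Inhba* (ENSMUSG00000041324, chr13:16011851-16027211, plus strand), whose product forms activin A as a dimer, was near the counting limit. It had 4, 0 and 1 counts in naive WT mice 1 to 3, 3, 17 and 6 in WT CAC mice 4 to 6 and 1 in each of *Cldn2*TG CAC mice 7 to 9. Only WT CAC mice 5 and 6 had more than 4 counts. Summed over the mice and scaled to library size, WT CAC had 7.24 times the level of *Cldn2*TG CAC mice (95% interval 2.22 to 37.4, exact binomial, counting error only). With no filter on low counts the adjusted p was 0.103 in WT CAC against naive WT and 0.0673 in *Cldn2*TG CAC against WT CAC (edgeR), and DESeq2 gave 0.192 for the latter.

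*Tgfbi* (ENSMUSG00000035493, chr13:56609603-56639339, plus strand), a matrix protein gene named for its induction by TGF-beta and made by macrophages and fibroblasts, was at 28.5, 16.5 and 25.4 CPM in naive WT mice 1 to 3. WT CAC mice 4 to 6 had 28.1, 60.2 and 44.3 CPM, and *Cldn2*TG CAC mice 7 to 9 had 17.2, 8.51 and 8.57 CPM. WT CAC mice 5 and 6 were well above the rest, while WT CAC mouse 4 was level with naive WT mouse 1. *Tgfbi* was 3.92-fold lower in *Cldn2*TG CAC than in WT CAC mice (log2 fold change -1.97, SE 0.37, adjusted p = 0.02, edgeR). The call was lost with no filter on low counts (0.077) and without WT CAC mouse 5 (0.0555) or 6 (0.0552) or *Cldn2*TG CAC mouse 8 (0.0927) or 9 (0.0966), with adjusted p from 2.92e-07 to 0.0966. In WT CAC against naive WT the log2 fold change was 0.94 (SE 0.3, adjusted p = 0.0756, edgeR), and it passed with DESeq2 (0.0119) and without WT CAC mouse 4 (1.17, adjusted p = 0.0114), over a range of 0.0114 to 0.2. *Cldn2*TG CAC mice had a log2 fold change of -1.04 against naive WT (SE 0.33, adjusted p = 0.096, edgeR), which passed with DESeq2 (0.00392), with no filter (2.84e-06) and without *Cldn2*TG CAC mouse 7 (0.011), over a range of 2.84e-06 to 0.242.

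*Id1* (ENSMUSG00000042745, chr2:152736251-152737410, plus strand), a direct BMP target that encodes an inhibitor of helix-loop-helix factors, was at 483, 379 and 401 CPM in naive WT mice 1 to 3. It was at 327, 444 and 454 CPM in WT CAC mice 4 to 6 and at 481, 548 and 787 CPM in *Cldn2*TG CAC mice 7 to 9. Every transgenic mouse had more *Id1* than every WT CAC mouse, and mouse 9 was the highest of the 9. The log2 fold change was 0.55 in *Cldn2*TG CAC against WT CAC (SE 0.21, adjusted p = 0.149, edgeR) and 0.53 against naive WT (SE 0.18, adjusted p = 0.103, edgeR). Against naive WT it passed with DESeq2 (0.0262), with no filter (0.000112) and without *Cldn2*TG CAC mouse 7 (0.0452), over a range of 0.000112 to 0.282. The log2 fold change in WT CAC against naive WT was -0.02 (SE 0.16, adjusted p = 0.951, edgeR), and it changed sign without naive WT mouse 1 (0.09) and without WT CAC mouse 4 (0.11).

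*Rspo3* (ENSMUSG00000019880, chr10:29453109-29535867, minus strand), the R-spondin of stromal cells beneath the crypt base, was at 1.34, 1.41 and 2.04 CPM in naive WT mice 1 to 3. WT CAC mice 4 to 6 had 3.0, 1.37 and 1.27 CPM, and *Cldn2*TG CAC mice 7 to 9 had 0.964, 1.01 and 0.813 CPM, from 11 to 20 counts a mouse. The transgenic mice were the 3 lowest, and among WT CAC mice only mouse 4 lay above naive WT mice. The log2 fold change was -1.03 in *Cldn2*TG CAC against WT CAC (SE 0.42, adjusted p = 0.177, edgeR) and -0.77 against naive WT (SE 0.31, adjusted p = 0.152, edgeR). Between WT CAC and naive WT mice it was 0.26 (SE 0.41, adjusted p = 0.691, edgeR), and -0.25 without WT CAC mouse 4.

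For each member, a two-sided exact permutation test of mean CPM gave p = 0.1, the smallest that 3 mice against 3 allow, wherever the groups did not overlap. That was the case for all 9 members, *Inhba* included, in *Cldn2*TG CAC against WT CAC.

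The other genes of these pathways were taken from 11 lists by role, with 86 genes including the 9 members. Among the 77 genes that are not members, 67 had enough counts in WT CAC against naive WT, of which 13 were called higher and 1 lower (median log2 fold change 0.33, against 0.02 for all genes). For *Cldn2*TG CAC against WT CAC, 64 could be tested, with 1 higher and 18 lower and a median of -0.48 (0.01 for all genes). *Cldn2*TG CAC against naive WT gave 4 higher and 10 lower of 63, with a median of -0.15 (0.00 for all genes). With the members, 17, 25 and 15 pathway genes were called in these comparisons, and 1, 0 and 4 of them kept the call whichever of the 6 mice was left out. The 1 was *Pmepa1*, and *Bmp8b*, *Eng* and *Ltbp4* were among the 4. The totals and list counts include called genes that were kept for testing by their counts in WT CAC mice alone. Among these were *Lgr6* and *Msx1* in both comparisons with WT CAC mice, and *Fst* and *Inhbb* in *Cldn2*TG CAC against WT CAC.

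**Figure D3:**
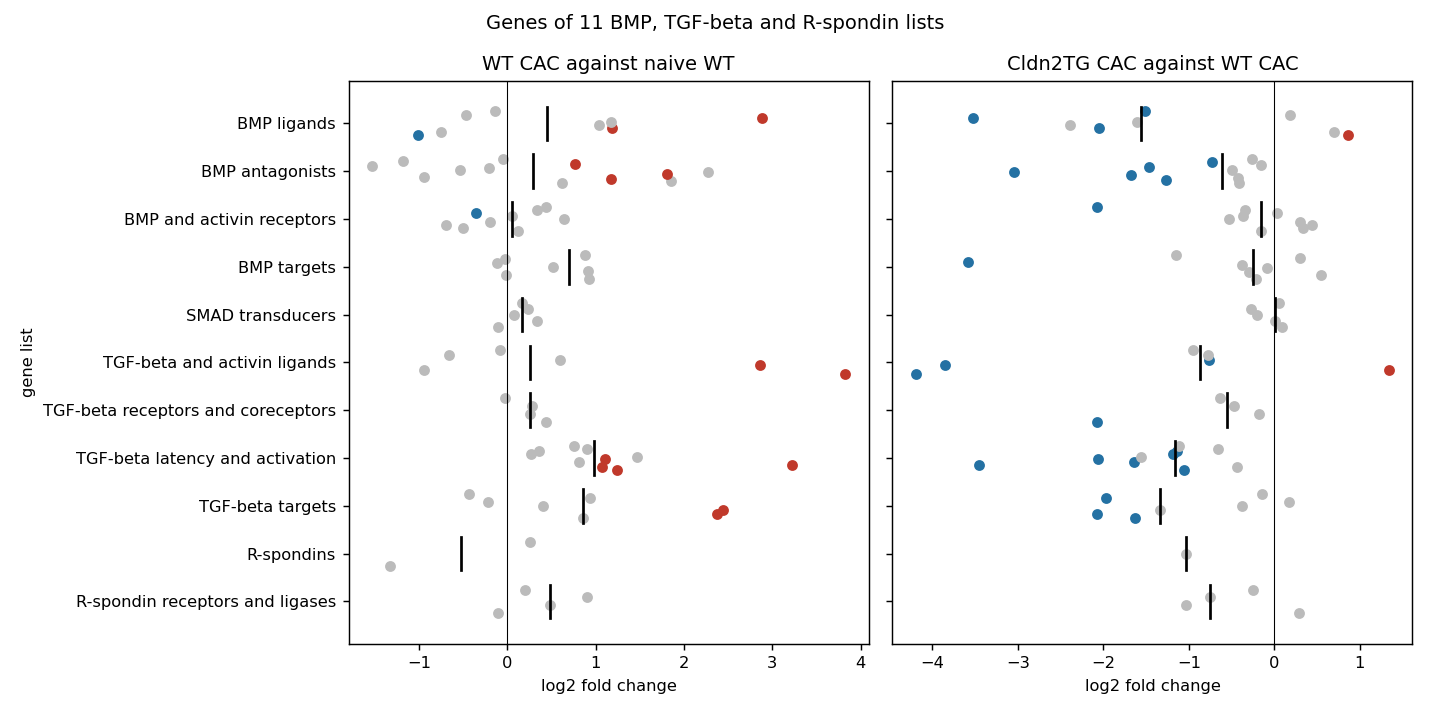
Log2 fold change of the tested genes of each list in WT CAC against naive WT (left) and *Cldn2*TG CAC against WT CAC (right), in red where called higher, blue where called lower and gray where not called, with a black line at the list's median. Genes with at most 3 counts in every mouse of a group are not drawn, and the TGF-beta latency and activation list has its median at 0.98 on the left and at -1.16 on the right.

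Of 12 BMP ligands, 8 were tested in each comparison. WT CAC mice had 2 higher and 1 lower than naive WT mice, and *Cldn2*TG CAC mice had 1 higher and 3 lower than WT CAC mice (list medians 0.45 and -1.56), all of them members except *Bmp8b*. *Bmp8b* was at 3.68, 5.37 and 4.6 CPM in naive WT, 2.64, 6.28 and 3.21 CPM in WT CAC and 1.1, 1.52 and 1.7 CPM in *Cldn2*TG CAC mice. Like *Grem1*, it was lower in every transgenic mouse than in the 6 others. It was lower against WT CAC (log2 fold change -1.51, adjusted p = 0.0459, edgeR) and against naive WT (-1.65, adjusted p = 0.00569). The first of these calls was kept only in the fit without WT CAC mouse 4, among the fits that left out 1 mouse, with an adjusted p of up to 0.157, and it was lost with lane 1 alone (0.067).

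Of 13 genes listed as BMP antagonists, 3 of 12 tested were higher in WT CAC than in naive WT (*Chrd*, *Chrdl2* and *Nbl1*, median 0.29). Of 10 tested, 5 were lower in *Cldn2*TG CAC than in WT CAC (*Grem1*, *Chrd*, *Chrdl2*, *Fst* and *Nbl1*, median -0.61). *Chrd*, which encodes Chordin, was at 3.58, 2.31 and 2.0 CPM in naive WT, 5.84, 5.88 and 5.69 CPM in WT CAC and 2.2, 2.79 and 2.29 CPM in *Cldn2*TG CAC mice. The WT CAC mice were nearly level with each other and above the 6 others. Its log2 fold change was 1.17 against naive WT (adjusted p = 0.0304, edgeR) and -1.27 in *Cldn2*TG CAC against WT CAC (adjusted p = 0.0156). *Nbl1*, the antagonist with the highest level per length, had log2 fold changes of 0.77 (adjusted p = 0.0327) and -0.73 (adjusted p = 0.0178), and *Chrdl2* of 1.81 (adjusted p = 0.0464) and -1.68 (adjusted p = 0.0236). *Chrdl2* had 17, 4 and 17 counts in naive WT mice 1 to 3 and 39, 35 and 41 in WT CAC mice 4 to 6. Between these 2 groups, only WT CAC thus had at least 10 counts in all 3 mice. *Fst*, whose product Follistatin binds activins, was at 0.66, 6.1 and 4.35 CPM in WT CAC and at 0.482, 0.304 and 0.591 CPM in *Cldn2*TG CAC mice, with WT CAC mouse 4 barely above the transgenic mice (log2 fold change -3.05, adjusted p = 0.0489). It was kept for testing by its counts in WT CAC mice alone, was not called with no filter (0.0736) and was not tested with either lane alone or with at least 10 counts required in every mouse. Against naive WT, *Grem1* and *Chrdl1* (log2 fold change -1.34, adjusted p = 0.0133) were among the antagonists that were lower in *Cldn2*TG CAC mice. The calls of *Chrd*, *Chrdl2*, *Fst* and *Nbl1* were each kept in 1 to 3 of the 6 fits that left out 1 mouse, with adjusted p of up to 0.183, those of *Chrdl2* and *Nbl1* against naive WT were lost without mouse 1 among others, those of *Chrd* and *Chrdl2* against naive WT with lane 2 alone (0.0768 and 0.0836), *Chrdl2* was not tested against WT CAC with lane 2 alone or in either comparison with at least 10 counts required in every mouse, and *Chrdl1* was not called without naive WT mouse 3 (0.0552), with lane 1 alone (0.0698) or with all 9 mice in the fit (0.054).

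Of 10 BMP and activin receptors, 9 were tested. *Bmpr1a* was called lower in WT CAC than in naive WT (log2 fold change -0.36, adjusted p = 0.0484, edgeR), by a margin that library size only (0.05) and 5 other alternatives removed, over a range of up to 0.16, while 4 receptors were called without WT CAC mouse 4 and 0 without any other single mouse. *Eng* was the only receptor called lower in *Cldn2*TG CAC against WT CAC (medians of the list 0.05 and -0.16). *Eng*, which encodes endoglin, a coreceptor of endothelial cells, was at 7.86, 8.39 and 8.77 CPM in naive WT, 8.03, 13.7 and 11.8 CPM in WT CAC and 2.89, 1.98 and 3.25 CPM in *Cldn2*TG CAC mice. All transgenic mice were far below the 6 others. Its log2 fold change was -2.07 against WT CAC (adjusted p = 0.0082, lost only without *Cldn2*TG CAC mouse 8 at 0.052) and -1.63 against naive WT (adjusted p = 0.00302). *Acvr1b*, an activin receptor and the highest of the list per length, had log2 fold changes of -0.5 (adjusted p = 0.0711) and 0.34 (adjusted p = 0.268). The 4 TGF-beta receptors and coreceptors, *Eng* among them, had medians of 0.26 and -0.55, and *Tgfbr2*, the highest per length, had log2 fold changes of 0.28 (adjusted p = 0.234) and -0.47 (adjusted p = 0.092).

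No call was made among the 5 SMAD transducers in the 3 comparisons, with medians of 0.16, 0.01 and -0.02. Of the alternatives, the fit without WT CAC mouse 4 called 1 in WT CAC against naive WT, and the fit with no filter called 1 in *Cldn2*TG CAC against naive WT. *Smad4*, the common partner of the pathway SMADs and the highest per length, was between 149 and 220.2 CPM in all 9 mice.

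Of 9 BMP targets, 8 were tested in WT CAC against naive WT and in *Cldn2*TG CAC against WT CAC, with medians of 0.7 and -0.25. *Msx1*, a homeobox gene that BMPs induce, was called in both. It had 0, 0 and 3 counts in naive WT mice 1 to 3, 16, 62 and 63 in WT CAC mice 4 to 6 and 3, 3 and 4 in *Cldn2*TG CAC mice 7 to 9. WT CAC mice had 51.8 times the naive WT level (95% interval 17.4 to 254, exact binomial, counting error only), a difference that was called (adjusted p = 0.0159, edgeR) except without naive WT mouse 1, 2 or 3 (up to 0.0717). *Msx1* was kept for testing in both comparisons by its counts in WT CAC mice alone, and it was not tested with either lane alone or with at least 10 counts required in every mouse. The log2 fold change in *Cldn2*TG CAC against WT CAC was -3.58 (adjusted p = 0.0171, edgeR, kept in 2 of 6 fits that left out 1 mouse). Of 7 targets tested, 3 were higher and 0 lower in *Cldn2*TG CAC than in naive WT. These were *Id2* (log2 fold change 0.63, adjusted p = 0.0194), *Id3* (0.43, adjusted p = 0.0358) and *Atoh8* (0.72, adjusted p = 0.0365). With all 9 mice in the fit they were not called (0.167, 0.253 and 0.128), *Id3* and *Atoh8* also not with library size only (0.0992 and 0.076), and *Atoh8* not with either lane alone (0.0722 and 0.0768). Of the 6 fits with 1 mouse left out, 3 called *Id2*, 1 called *Id3* and 0 called *Atoh8*, with adjusted p of up to 0.0837, 0.135 and 0.112, and naive WT mouse 1 was among those whose absence ended the calls of *Id3* and *Atoh8*. The same 3 genes in *Cldn2*TG CAC against WT CAC were at -0.29 (adjusted p = 0.571), -0.09 (adjusted p = 0.882) and -0.21 (adjusted p = 0.739).

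Of 8 TGF-beta and activin ligands, 6 were tested in these 2 comparisons. *Inhbb* and *Gdf11* were higher in WT CAC than in naive WT, and *Tgfb1*, *Inhbb* and *Gdf11* were lower and *Gdf15* higher in *Cldn2*TG CAC than in WT CAC (medians 0.25 and -0.87). *Gdf11*, a ligand that signals through activin receptors, was at 1.29, 1.36 and 0.999 CPM in naive WT, 5.74, 14.3 and 30.7 CPM in WT CAC and 1.1, 0.76 and 0.96 CPM in *Cldn2*TG CAC mice. As for *Bmp7*, WT CAC mouse 6 was the highest, mouse 4 the lowest of its group, and the 6 other mice were close together. Its log2 fold changes were 3.82 (SE 0.62, adjusted p = 0.0147, edgeR) and -4.19 (SE 0.65, adjusted p = 0.0125). With 1 mouse left out they ran from 3.06 to 4.23 and from -4.59 to -3.41. The calls were lost without naive WT mouse 1, 2 or 3 and without *Cldn2*TG CAC mouse 7, 8 or 9 (up to 0.0714 and 0.0774). *Inhbb*, a second activin subunit gene, had 1.27, 4.51 and 5.22 CPM in WT CAC mice and 0.597 CPM or less in the other 6, with log2 fold changes of 2.86 (adjusted p = 0.0196) and -3.85 (adjusted p = 0.0138). *Gdf15*, a stress-induced ligand and the highest of the list per length in every group but WT CAC, was at 6.65, 3.89 and 5.56 CPM in WT CAC and at 11.3, 9.93 and 20.2 CPM in *Cldn2*TG CAC mice, so that the groups were apart. It was higher in the latter (log2 fold change 1.34, adjusted p = 0.0363), with a call kept only in the fit without WT CAC mouse 4 among those that left out 1 mouse (up to 0.124). *Inhbb* had 6, 5 and 1 counts in *Cldn2*TG CAC mice, so that it was kept for testing against WT CAC by the latter alone, and it was not tested there with lane 2 alone or in either comparison with at least 10 counts required in every mouse. In naive WT mice *Inhbb* had 12, 7 and 13 counts. Against these, only WT CAC mice (25, 102 and 78 counts) had at least 10 in every mouse. It was not called against naive WT without naive WT mouse 1, 2 or 3 or WT CAC mouse 5 (up to 0.0854), nor against WT CAC without *Cldn2*TG CAC mouse 8 or 9 (up to 0.0812). *Tgfb2* was lower in *Cldn2*TG CAC than in naive WT (-1.43, adjusted p = 0.0451), which 1 of 6 such fits kept and the fit without naive WT mouse 1 did not, nor that of all 9 mice (0.0713), lane 1 (0.0622) or lane 2 alone (0.0829).

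TGF-beta is secreted in a latent complex with LTBP proteins and is freed by integrins. Of 10 genes of TGF-beta latency and activation, all tested, 4 were higher in WT CAC than in naive WT (*Ltbp1*, *Itgav*, *Itgb6* and *Itgb8*, median 0.98). Another 6 calls, all lower, came in *Cldn2*TG CAC against WT CAC (*Ltbp1*, *Ltbp3*, *Ltbp4*, *Itgav*, *Itgb8* and *Lrrc32*, median -1.16). The call of *Lrrc32* (adjusted p = 0.0476, edgeR) was lost with lane 2 alone (0.288) and in 5 of 6 fits that left out 1 mouse (up to 0.18). Those of *Itgav* were lost without naive WT mouse 2 or 3 (up to 0.0739) and without *Cldn2*TG CAC mouse 7, 8 or 9 (up to 0.0876). *Itgb8*, an integrin chain that activates latent TGF-beta, was at 2.89, 2.11 and 2.52 CPM in naive WT, 10.2, 35.6 and 23.3 CPM in WT CAC and 3.79, 1.72 and 0.886 CPM in *Cldn2*TG CAC mice. WT CAC mice were all above the 6 others, with mouse 4 again the lowest of them. Its log2 fold changes were 3.22 (SE 0.45, adjusted p = 0.00915, edgeR) and -3.45 (SE 0.62, adjusted p = 0.019). The first was lost without naive WT mouse 2 (0.0585), and the second with no filter (0.0968) and without WT CAC mouse 6 or *Cldn2*TG CAC mouse 8 or 9 (up to 0.102). *Itgb6*, the epithelial partner of the alpha v chain and the highest of the list per length in every group but naive WT, was at 34.7, 28.4 and 30.0 CPM in naive WT, 53.0, 69.6 and 68.9 CPM in WT CAC and 52.3, 52.7 and 38.4 CPM in *Cldn2*TG CAC mice. Both treated groups lay above naive WT, by log2 fold changes of 1.07 (adjusted p = 0.00806) and 0.63 (adjusted p = 0.0198), and the groups differed by -0.44 (adjusted p = 0.149). The higher level in *Cldn2*TG CAC was not called with library size only (0.0556) or all 9 mice in the fit (0.0548), nor without naive WT mouse 2 or 3 or *Cldn2*TG CAC mouse 7 or 8 (up to 0.0857), and that in WT CAC not without naive WT mouse 2 (0.0512).

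*Ltbp1* was at 4.93, 4.27 and 6.3 CPM in naive WT, 8.33, 12.7 and 11.6 CPM in WT CAC and 3.38, 2.33 and 2.22 CPM in *Cldn2*TG CAC mice, with no overlap between any of the groups. Its log2 fold change was 1.1 in WT CAC against naive WT (adjusted p = 0.0246, edgeR), -2.06 in *Cldn2*TG CAC against WT CAC (adjusted p = 0.00777) and -0.96 against naive WT (adjusted p = 0.0368). *Ltbp4* had log2 fold changes of 0.36 (adjusted p = 0.135), -1.14 (adjusted p = 0.0108) and -0.78 (adjusted p = 0.0103). *Ltbp3* was lower in *Cldn2*TG CAC mice against both WT groups as well (-1.19, adjusted p = 0.0295, and -0.92, adjusted p = 0.0234). Of these calls, that of *Ltbp4* against naive WT was kept in all 6 fits that left out 1 mouse and the others in 1 to 4 of them, with adjusted p of up to 0.153. Without naive WT mouse 1, *Ltbp1* was not called in either treated group against naive WT, nor *Ltbp3* in *Cldn2*TG CAC mice. In *Cldn2*TG CAC against naive WT, *Ltbp1* and *Ltbp3* were not called with all 9 mice in the fit (0.0678 each) and *Ltbp1* not with lane 1 (0.0792) or lane 2 alone (0.0618), and against WT CAC *Ltbp3* was not called with lane 2 alone (0.0753).

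Of 7 TGF-beta targets, all tested, *Pmepa1* was among those higher in WT CAC than in naive WT (list median 0.86), and *Tgfbi*, *Ccn2* and *Pmepa1* were lower in *Cldn2*TG CAC than in WT CAC (median -1.34). *Pmepa1*, which encodes a membrane protein that binds receptor SMADs and limits the signal, was the highest of the list per length in WT CAC mice and in the mean of all 9 mice, but not in either other group. It was at 36.7, 32.9 and 32.1 CPM in naive WT, 110.3, 184 and 222 CPM in WT CAC and 42.8, 35.6 and 46.1 CPM in *Cldn2*TG CAC mice. The WT CAC mice stood far above the 6 others, which lay within a narrow range. Its log2 fold change was 2.37 in WT CAC against naive WT (SE 0.25, adjusted p = 0.00488, edgeR) and -2.07 in *Cldn2*TG CAC against WT CAC (SE 0.25, adjusted p = 0.0068), and only the second call was lost, without *Cldn2*TG CAC mouse 8 (0.052). *Ccn2*, which encodes connective tissue growth factor, had log2 fold changes of 0.86 (adjusted p = 0.0911) and -1.63 (adjusted p = 0.0422, lost with lane 1 alone at 0.0589 and kept in 2 of 6 fits that left out 1 mouse). *Tgif1*, a corepressor of SMADs, was lower in *Cldn2*TG CAC than in naive WT (-0.56, adjusted p = 0.0132), though not without *Cldn2*TG CAC mouse 8 or with all 9 mice in the fit (0.06 in each).

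Of the 4 R-spondins, *Rspo3* was the highest per length, and the others were at few counts. *Rspo1*, at 0.946, 1.31 and 0.825 CPM in naive WT and 0.0689, 0.456 and 0.295 CPM in *Cldn2*TG CAC mice, was called lower in the latter (log2 fold change -1.8, adjusted p = 0.0466, edgeR), a call kept in none of the fits that left out 1 mouse (up to 0.13) and not made by DESeq2 (0.0739) or with all 9 mice in the fit (0.071). It was kept for testing by its counts in naive WT mice alone and not tested with either lane alone or with at least 10 counts required in every mouse. Of the 5 R-spondin receptors and ligases, *Lgr4*, the highest per length, was between 245 and 349 CPM in all mice and not called. *Lgr6*, a receptor of the stem cell receptor family, had 3, 1 and 3 counts in naive WT mice 1 to 3, 41, 123 and 217 in WT CAC mice 4 to 6 and 1, 0 and 1 in *Cldn2*TG CAC mice 7 to 9. It was thus close to undetected outside WT CAC mice. WT CAC mice had 59.9 times the naive WT level (95% interval 28.8 to 150.1, exact binomial) and 159 times the *Cldn2*TG CAC level (43.7 to 1318, exact binomial). These intervals cover counting error only and not the spread between mice. Both differences were called (adjusted p = 0.0114 and 0.011, edgeR), with the gene kept for testing by its counts in WT CAC mice alone and not tested where 10 counts were required in every mouse. They were lost without naive WT mouse 2 or 3 and without *Cldn2*TG CAC mouse 7, 8 or 9 (up to 0.0635 and 0.0682).

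Many of these signals are made by stromal and immune cells, so marker lists of the cell types of colon were summed in each mouse. In bulk RNA, fewer cells of a type and less RNA per cell cannot be told apart. Fibroblast markers (8 genes, *Dcn* highest per length) summed to 427, 327 and 461 CPM in naive WT mice 1 to 3, 482, 1184 and 535 CPM in WT CAC mice 4 to 6 and 263, 202 and 287 CPM in *Cldn2*TG CAC mice 7 to 9. All transgenic mice were below all WT mice in this sum, but not per length, where mouse 9 (66.2 CPM per kb) was above naive WT mouse 2 (63.4), and *Dcn* overlapped between transgenic and naive WT mice. In *Cldn2*TG CAC against WT CAC 2 of the 8 (*Col1a2* and *Col3a1*) were called lower (median -1.58), though not with no filter (0.177 and 0.154), nor *Col1a2* with lane 2 alone (0.054), and in WT CAC against naive WT none was called by edgeR (median 0.9). Against naive WT, *Pdgfrb* and *Col1a2* were called lower in *Cldn2*TG CAC mice (median -0.87), in 2 and 3 of 6 fits that left out 1 mouse (up to 0.0761) and not with all 9 mice in the fit (0.0939 and 0.245). Markers of subepithelial telocytes and crypt-top fibroblasts (5 genes, *F3* highest per length), cells known to make BMPs, summed to 61.8, 43.3 and 51.9, then 97.9, 164 and 155, then 78.1, 62.3 and 82.0 CPM in the same order of mice. The WT CAC mice were the 3 highest, as for *Bmp4*, with 4 of 5 markers higher than in naive WT (*Foxl1*, *Sox6*, *F3* and *Wnt5a*) and 3 of 5 lower in *Cldn2*TG CAC than in WT CAC (*Foxl1*, *Foxf1* and *Wnt5a*). In the latter, *Foxl1* was kept for testing by its counts in WT CAC mice alone and was not tested with at least 10 counts required in every mouse. Unlike for *Bmp4*, all transgenic mice lay above all naive WT mice in this sum. Most of it was *F3*, which was called higher in *Cldn2*TG CAC than in naive WT (log2 fold change 0.72, adjusted p = 0.0165, edgeR). That call was lost without naive WT mouse 3 (0.0691) and with all 9 mice in the fit (0.0836). *Foxl1* (-1.13) and *Foxf1* (-0.86) were not called there, and the list median was -0.1. Smooth muscle markers (6 genes, *Tagln* highest per length) summed to 3966, 1954 and 2928 CPM in naive WT, 2875, 1036 and 1259.6 CPM in WT CAC and 1236, 1452 and 939 CPM in *Cldn2*TG CAC mice. Between the treated groups no gene of this list was called, and in *Cldn2*TG CAC against naive WT *Acta2* (adjusted p = 0.00988, edgeR) and *Myh11* (adjusted p = 0.0224) were called lower (list median -1.39), though not with all 9 mice in the fit (0.0544 and 0.157), and *Myh11* not without naive WT mouse 1 or 3 or *Cldn2*TG CAC mouse 7 (up to 0.0836). Naive WT mouse 2 and WT CAC mouse 5, the lowest of their groups in this sum, were also the lowest of their groups in *Grem1*, whereas *Cldn2*TG CAC mouse 9, with the lowest sum, had the most *Grem1* of its group.

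Endothelial markers (6 genes, *Lyve1* highest per length) summed to 39.1, 51.6 and 44.0 CPM in naive WT, 33.1, 57.3 and 36.0 CPM in WT CAC and 22.9, 21.7 and 27.8 CPM in *Cldn2*TG CAC mice. The transgenic mice were the 3 lowest in this sum, as for *Eng*, but not per length, where mouse 9 (7.64 CPM per kb) was above WT CAC mouse 4 (7.39). *Lyve1* had a log2 fold change of -0.05 against WT CAC, while *Pecam1*, *Cdh5* and *Tie1* were called lower than in WT CAC. Against naive WT, *Pecam1*, *Cdh5*, *Kdr* and *Tie1* were called lower (median -0.97). *Cdh5* (log2 fold change -1.69) and *Tie1* kept the call whichever mouse was left out, and *Pecam1* and *Kdr* in 3 and 1 of 6 such fits (up to 0.149). With all 9 mice in the fit *Tie1* (0.0522) and *Kdr* (0.102) were not called, nor *Tie1* with lane 2 alone (0.0958) or *Kdr* with lane 1 alone (0.152). Macrophage markers (5 genes, *Cd14* highest per length) summed to 101, 112 and 127, then 88.8, 179 and 177, then 88.1, 81.2 and 76.3 CPM. Only WT CAC mice 5 and 6 were high in this sum, as for *Tgfbi*, but most of it was *Cd14*, at 73.0, 137 and 142 CPM in WT CAC mice 4 to 6. *Csf1r* and *Cd68* were called higher in WT CAC than in naive WT and lower in *Cldn2*TG CAC than in WT CAC. *Cd14* was called lower in *Cldn2*TG CAC than in naive WT (log2 fold change -0.44, adjusted p = 0.0274, edgeR). That call was kept in 2 of 6 fits that left out 1 mouse (up to 0.124) and lost with all 9 mice in the fit (0.279). Neutrophil markers (5 genes, *S100a9* highest per length) summed to 0.697, 0.0502 and 0.825 CPM in naive WT, 2.08, 50.1 and 27.5 CPM in WT CAC and 0.482, 0.456 and 0.222 CPM in *Cldn2*TG CAC mice, with *Mpo* at 0 in naive WT and *Cldn2*TG CAC mice. WT CAC mouse 4 thus had far fewer neutrophil reads than mice 5 and 6. T cell markers (5 genes, *Trac* highest per length in both WT groups) summed to 2.84, 2.71 and 6.6, then 12.5, 26.1 and 19.5, then 4.27, 3.34 and 6.72 CPM, B and plasma cell markers (4 genes, *Jchain* highest per length) to 60.7, 39.0 and 91.7, then 217, 447 and 416, then 102, 34.1 and 38.4 CPM, and the leukocyte marker *Ptprc* was at 10.9, 4.67 and 9.47, then 16.9, 24.3 and 20.2, then 7.37, 6.13 and 4.21 CPM. On these 3 lists every WT CAC mouse was above the 6 others, as for *Tgfb1*. The calls named for telocyte and macrophage markers in WT CAC against naive WT were all lost without naive WT mouse 2, and those of *Sox6*, *Csf1r* and *Cd68* also without mouse 1, with adjusted p of up to 0.127. *Sox6* was not called with lane 1 alone (0.0653) and *Csf1r* not with no filter (0.0547). Those named for fibroblast, telocyte, endothelial and macrophage markers in *Cldn2*TG CAC against WT CAC were all lost without mouse 8 and without mouse 9, with adjusted p of up to 0.175, and those of *Foxf1* and *Pecam1* with lane 1 alone (0.0511 and 0.0599) as well. *Pecam1* was also not called there with at least 10 counts required in every mouse (0.0504).

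Epithelial markers (6 genes, *Krt8* highest per length) summed to 10558, 10876 and 11456 CPM in naive WT, 12082, 11981 and 10419 CPM in WT CAC and 11675, 13385 and 14179 CPM in *Cldn2*TG CAC mice. WT CAC mice overlapped with both other groups in this sum, and all transgenic mice lay above all naive WT mice. *Krt8* alone gave 4948, 4966 and 5431 CPM of it in naive WT and 5729, 7527 and 7358 CPM in *Cldn2*TG CAC mice. *Cdh1* went the other way, at 1591, 1718 and 1559 CPM in naive WT and 1548, 1371 and 1556 CPM in *Cldn2*TG CAC mice, and was not called. The list median in *Cldn2*TG CAC against naive WT was 0.11, with 5 of the 6 markers not called. *Krt8* was called higher in *Cldn2*TG CAC than in naive WT (log2 fold change 0.43, adjusted p = 0.0384, edgeR), though not with library size only (0.0842) or all 9 mice in the fit (0.11), and in 1 of 6 fits that left out 1 mouse. Colon epithelium markers (6 genes, *Car1* highest per length) summed to 5566, 4422 and 6174, then 5992, 3877 and 3326, then 4119.7, 5321 and 6719 CPM, and the groups overlapped. Mesothelium markers (4 genes, *Msln* highest per length) summed to 11.9, 10.5 and 6.04, then 11.9, 21.3 and 30.3, then 0.276, 8.31 and 5.02 CPM. The sum was highest in WT CAC mice 5 and 6, where most of it was *Msln* (17.3 and 30.0 CPM), whereas the list median was -1.04 in WT CAC against naive WT. Of 5 pancreas genes, *Cela1*, the highest per length, was at 415 to 813 CPM in all mice, and *Amy2b* was at 0. The others were near the counting limit. Summed over the mice of a group, *Cpa1*, *Pnlip* and *Prss2* had 12, 14 and 15 counts in naive WT. They had 0, 1 and 6 counts in WT CAC and 0, 0 and 3 in *Cldn2*TG CAC mice. The part of cell makeup in the differences of the 9 genes was not tested.

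**Figure D4:**
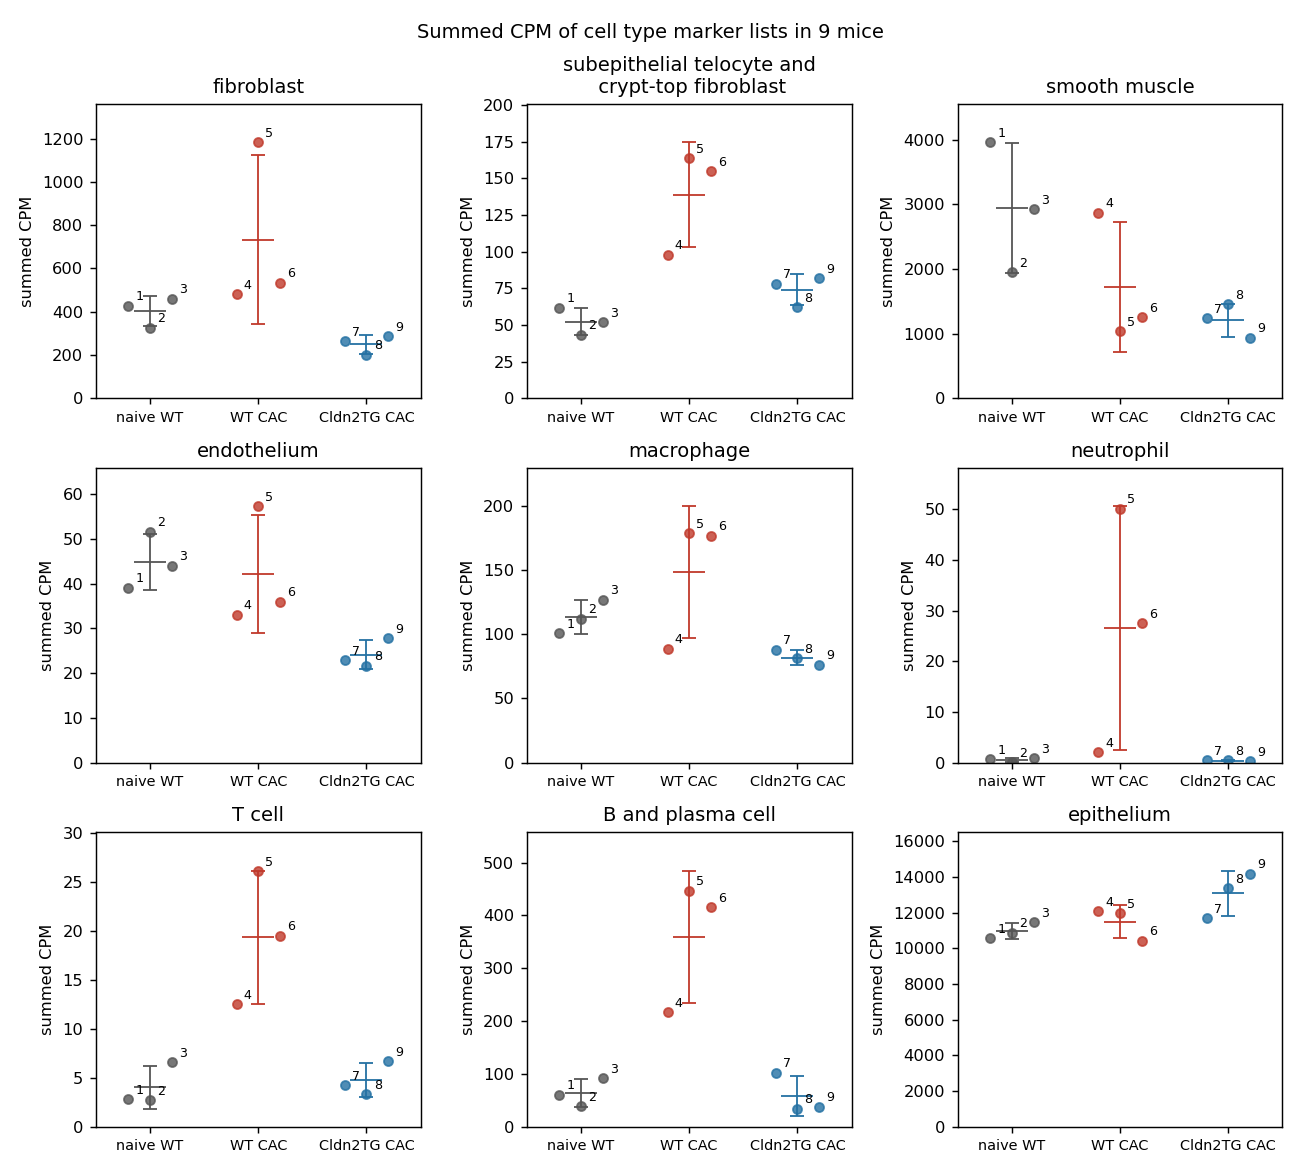
Summed CPM (linear axis from 0) of 9 marker lists in each mouse, with 1 point per mouse labeled by its number and the mean ± SD of 3 mice in each group. WT CAC mice 5 and 6 are the highest on the neutrophil list (50.1 and 27.5 CPM), and all *Cldn2*TG CAC mice lie below all WT mice on the fibroblast list (202 to 287 CPM) and the endothelium list (21.7 to 27.8 CPM).

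The genes whose levels over the 9 mice were most like those of each member were found by Pearson's r of log2 CPM among 13876 genes with a mean of at least 1 CPM. These r describe 9 mice in 3 groups that share the differences between groups, and no p is given. The highest were found for *Bmp7*, with *Htra1* (0.996), *Arl4c* (0.992) and *Cdh13* (0.991). *Tgfbi* came next, with *Ms4a6d* (0.991), *Ggta1* (0.986) and *Pdgfra* (0.984). For *Bmp2* they were *Gsdmcl2* (0.984), *Xpr1* (0.983) and *Slc30a1* (0.977), and for *Tgfb1* *Il2rg* (0.983), *Ctps* (0.965) and *Ltbp2* (0.965). *Bmp4* was most like *Scube1* (0.978), *Pla2r1* (0.973) and *C3ar1* (0.972), and *Inhba*, at few counts, most like *Itgal* (0.964), *Il1rl1* (0.96) and *Rab31* (0.959). *Rspo3*, *Id1* and *Grem1* had no gene above 0.958. The nearest were *Xab2* (0.958), *Oas1b* (0.934) and *Ak1* (0.934) for *Rspo3*, *Tmem30a* (0.941), *Mlf2* (0.937) and *Mettl9* (0.933) for *Id1*, and *Pcp4l1* (0.935), *Gm37145* (0.932) and *Iqcc* (0.929) for *Grem1*.

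Promoter sequences of RefSeq (GRCm38.p6) matched 5 of the 9 members by symbol, *Bmp4*, *Grem1*, *Inhba*, *Tgfb1* and *Tgfbi*, and not *Bmp2*, *Bmp7*, *Id1* and *Rspo3*. The 250 bases before the RefSeq start are written 5′ to 3′ on the strand of the gene. They are shown for 4 of the 5 members called lower in *Cldn2*TG CAC than in WT CAC mice. These 4 were picked by that call and by having a promoter match, which *Bmp7* lacked. On both strands, 3 motifs were searched. They were GGCGCC, a GC-rich element of BMP SMADs, CAGAC, the CAGA box of TGF-beta SMADs, and TGANTCA, the AP-1 element, none of which overlapped another in these windows. Matches are in capitals. Of 32851 promoters of the same length, 9.59% held GGCGCC, 42.2% held CAGAC and 6.75% held TGANTCA.
*Bmp4* promoter (chr14:46390670-46390919, minus strand): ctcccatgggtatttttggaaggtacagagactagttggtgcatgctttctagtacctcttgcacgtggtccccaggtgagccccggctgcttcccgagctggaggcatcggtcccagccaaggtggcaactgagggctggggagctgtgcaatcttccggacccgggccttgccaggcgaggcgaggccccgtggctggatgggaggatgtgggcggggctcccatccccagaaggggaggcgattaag
*Grem1* promoter (chr2:113758649-113758898, minus strand): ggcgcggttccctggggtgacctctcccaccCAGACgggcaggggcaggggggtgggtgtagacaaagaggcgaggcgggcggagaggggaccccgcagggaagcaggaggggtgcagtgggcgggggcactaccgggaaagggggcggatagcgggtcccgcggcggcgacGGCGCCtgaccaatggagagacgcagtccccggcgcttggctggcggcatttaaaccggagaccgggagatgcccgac
*Tgfb1* promoter (chr7:25686752-25687001, plus strand): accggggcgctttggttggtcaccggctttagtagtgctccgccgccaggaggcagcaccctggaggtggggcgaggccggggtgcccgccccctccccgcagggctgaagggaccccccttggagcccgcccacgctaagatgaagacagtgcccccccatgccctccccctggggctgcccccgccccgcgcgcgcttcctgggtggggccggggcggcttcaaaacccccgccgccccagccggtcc
*Tgfbi* promoter (chr13:56609336-56609585, plus strand): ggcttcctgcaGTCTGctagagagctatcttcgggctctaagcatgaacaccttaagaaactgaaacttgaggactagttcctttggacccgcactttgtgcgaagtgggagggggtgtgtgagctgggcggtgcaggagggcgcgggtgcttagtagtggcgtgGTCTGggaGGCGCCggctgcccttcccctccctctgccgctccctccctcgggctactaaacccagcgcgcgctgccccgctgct
*Grem1* held GGCGCC with its first base at -78 and CAGAC at -219, and *Tgfbi* held GGCGCC at -77 and CAGAC on the other strand (GTCTG) at -239 and -85, where -1 is the base before the start. The windows of *Bmp4* and *Tgfb1* held no match, and TGANTCA was in none of the 4. Their GC content was 63.2% for *Bmp4*, 72.0% for *Grem1*, 75.2% for *Tgfb1* and 62.4% for *Tgfbi*, each above the median of 52.4% over all promoters. A match shows only that these letters are present.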

How the data were processed

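Per the labels and the study's methods, the authors extracted colon RNA with a Zymo Research Quick-RNA kit, sequenced it on an Illumina NovaSeq6000 and counted reads per gene. The submitters' processing notes name HISAT2, featureCounts, Subread and GRCm38, and the study's methods name TopHat2 and featureCounts. Whether counting used the strand is not given in the sources used here. The deposited values are whole-number counts without normalization in 18 columns, 2 lanes of 9 libraries.

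Symbols came from GENCODE M21 (47310 of 47729 identifiers). Lanes were added up per mouse, and each mouse was 1 replicate. The 2 groups of each comparison were fitted with edgeR 4.0.16 in R 4.3.3 (TMM, filterByExpr with minimum count 10 and minimum total count 15, robust quasi-likelihood fit, two-sided test, adjustment by Benjamini-Hochberg across genes that passed the filter). The fits were first run on simulated counts. CPM used TMM factors over 9 mice. Alternatives were DESeq2 1.42.0, library size only, upper-quartile factors, no filter, all 9 mice in 1 fit, a minimum of 10 counts per mouse, each lane alone, a log2 fold change of at least 1, and leaving out each mouse. Named genes were the 9 members, per pathway list at most 4 called genes with the smallest adjusted p and the highest gene per length in the mean of 9 mice, per cell type list its highest gene per length, and the 3 most similar genes of each member. Not every gene that these rules pick is named, and not every list is reported. Other called genes of a list (*Chrdl1*, *Id2*, *Id3*, *Atoh8*, *Tgfb2*, *Ltbp3*, *Itgav*, *Lrrc32*, *Tgif1* and *Rspo1*) and the called markers were named after their values were seen. The 11 pathway lists and 15 cell type lists were written from textbook knowledge, and the members and lists were chosen with earlier results of these data known. Python 3.11.15 (pandas 2.3.3, numpy 2.4.6, matplotlib 3.10.9 and scipy 1.17.1) wrote the tables and drew the figures.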

Additional observations from a re-analysis of the deposited data

How the results depend on the processing

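No paired analysis was possible because the groups share no mouse numbers. In WT CAC against naive WT, 3 of the 9 genes and 2310 of all genes were called. DESeq2 called 5 of the 9, and 1289 of all genes also had a log2 fold change of at least 1. With 1 mouse left out these numbers ran from 0 (without naive WT mouse 1) to 5 (without WT CAC mouse 4) and from 135 (without naive WT mouse 2) to 4080 (without WT CAC mouse 4). In *Cldn2*TG CAC against WT CAC, 6 of the 9 and 1421 of all genes were called. DESeq2 called 2190 of all genes, and 908 were called with at least 10 counts required in every mouse. Leaving out 1 mouse gave 0 (mouse 8) to 6 (mouse 4) and 58 (mouse 8) to 2894 (mouse 4). In *Cldn2*TG CAC against naive WT, 1 of the 9 and 1501 of all genes were called. DESeq2 called 3 of the 9, no filter gave 4 and 2567, all 9 mice in the fit gave 511 of all genes and a log2 fold change of at least 1 gave 683. Leaving out 1 mouse gave 0 (mouse 8) to 4 (mouse 7) and 525 (mouse 3) to 1383 (mouse 7).

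Log2 fold changes that changed sign did so only with 1 mouse left out, and none of them was called. In WT CAC against naive WT they ran from -0.43 to 0.03 for *Grem1*, from -0.11 to 0.11 for *Id1* (0.09 without naive WT mouse 1) and from -0.25 to 0.47 for *Rspo3*. In *Cldn2*TG CAC against naive WT they ran from -0.32 to 0.05 for *Bmp2* and from -0.26 to 0.02 for *Tgfb1*. The cause was not tested.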
